A study of Homo sapiens with 6 samples.

Results

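CHEK2, the gene of the checkpoint kinase CHK2, and 6 genes around it on the long arm of chromosome 22 (PITPNB, TTC28, HSCB, CCDC117, XBP1 and ZNRF3) were followed in A2780 ovarian carcinoma cells with and without a knock-out of CDK12. The 7 genes were taken from the 60483 listed genes by symbol. The set was chosen by the counts of CHEK2, which were lower in the knock-out in this same comparison, and by position for the others, so the differences of these 7 genes between the groups are given as descriptions, with no test. Enough reads for a fit were found for 6 of the 7, among 16198 genes in all, and ZNRF3 was the exception.

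Total RNA was sequenced from 3 libraries of A2780 cells labelled WT and 3 libraries labelled CDK12 KO, all from cells kept in RPMI medium with serum and glutamine, with no drug named in the labels. The KO libraries come from 1 clone. Transfection of A2780 with a plasmid carrying Cas9, GFP and a guide RNA against exon 1 of CDK12 first gave a heterozygous clone. This was transfected and selected again, which gave the KO clone. What distinguishes this clone from the parental line through CDK12 and what distinguishes it as a clone cannot be told apart here. The labels do not say whether the libraries of a group came from separate cultures. The p-values given for other genes therefore set the group difference against the spread between these libraries, which may be technical. They do not extend to other clones.

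Library totals ran from 11098400 counts in WT replicate 3 to 30899045 in WT replicate 2, and 3 counts were worth 0.1001 to 0.270 CPM, the counts scaled to a library of 1000000. CDK12 itself, on chromosome 17 from 39461486 to 39567559 of GRCh38, was present in both groups, at 103, 125 and 117 CPM in WT and 99.0, 93.0 and 102 CPM in KO, and gene counts do not separate edited from intact transcripts. Its log2 fold change was -0.23 (SE 0.0582, edgeR adjusted p = 0.00082). Of 9 carcinoma and epithelial markers 3 were tested (EPCAM, KRT8 and KRT18), and MUC16 and KRT7 had at most 3 counts in each library. The summed level was 68.5 to 74.0 CPM in WT and 115 to 119 CPM in KO. Most of this sum was KRT18, with means of 59.9 CPM in WT and 103 CPM in KO. KRT8 was also higher in KO (7.34 and 11.0 CPM), whereas EPCAM was lower (3.19 and 2.17 CPM). None of the 3 passed both thresholds used below. Leukocyte markers summed to at most 1.04 CPM and endothelial markers to at most 0.929 CPM in any library. PTPRC, CD3E, PECAM1, CDH5 and TEK had 3 counts or fewer in each library. In these lists CD14 (12, 7 and 5 counts in WT and 12, 26 and 12 in KO) and VWF (2, 7 and 3 in WT and 18, 22 and 10 in KO) were higher in KO past both thresholds used below, with log2 fold changes of 1.02 and 2.00, and the call of CD14 was lost with voom/limma, with DESeq2 and without WT replicate 2 or KO replicate 2. The leukocyte marker CD68 went the other way, with 8, 11 and 1 counts in WT and 0, 1 and 1 in KO, and had too few reads to be tested. Fibroblast markers, led by the collagen genes COL1A1 and COL1A2, summed to 5147 to 5278 CPM in WT and 2679 to 2813 CPM in KO. Most of this sum was COL1A2, at 4577 CPM in WT and 2623 CPM in KO, which did not pass the fold threshold (log2 fold change -0.80). The other 4 of the 5 fell past both thresholds used below. Of these, DCN and LUM had at most 23 counts in any WT library. The part of these marker differences in the results was not tested.

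CHK2 is a serine/threonine kinase that is switched on by ATM after a double-strand break and passes the signal to the CDC25 phosphatases, BRCA1 and other proteins, which delay the cell cycle or favour repair and cell death. CDK12 is a cyclin-dependent kinase that phosphorylates RNA polymerase II during elongation and is known for keeping long DNA-repair genes expressed. The neighbours of CHEK2 have varied tasks. HSCB is the mitochondrial co-chaperone that hands iron-sulfur clusters from the scaffold protein ISCU to their acceptors, XBP1 is the transcription factor that IRE1 activates by splicing its mRNA when unfolded protein builds up in the endoplasmic reticulum, ZNRF3 is a membrane ubiquitin ligase that removes Frizzled receptors, and PITPNB carries phosphatidylinositol between membranes. TTC28 is a large protein with tetratricopeptide repeats. CCDC117 is named for its coiled coil.

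In GENCODE 44 on GRCh38 the 7 genes lie on chromosome 22 in the order PITPNB, TTC28, CHEK2, HSCB, CCDC117, XBP1 and ZNRF3, from 27851669 to 29057488, a stretch of 1.21 Mb. CHEK2 (28687743 to 28742422, minus strand) and HSCB (28742039 to 28757515, plus strand) stand head to head and their annotated ends overlap by 384 bases. By RefSeq starts, at 28741820 for CHEK2 and 28742039 for HSCB, 218 bases lie between the genes. This stretch, chr22:28741821-28742038 in the RefSeq table for GRCh38.p14, lies before both starts of this table, and its GC content is 59.6%, beside a median of 58.7% for 35116 promoter windows of this length. In GENCODE 44, where CHEK2 reaches farther, the same stretch lies inside the gene, in an exon of a CHEK2 transcript marked for nonsense-mediated decay.

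The stretch holds 3 matches to CCAAT, the box recognised by NF-Y, and 1 match to ACTACAA and TCCCA with 1 free base between them, a form of the element recognised by ZNF143 and THAP11, searched on both strands. At least 3 CCAAT were found in 2.48% of the windows and at least 1 of the other motif in 0.592%. The matches do not overlap each other. They are shown with their flanks in the order in which they lie from CHEK2 to HSCB, on the plus strand from 5′ to 3′, because the stretch lies between the RefSeq starts of these head to head genes. Capitals mark the match.
CHEK2 and HSCB, chr22:28741846-28741870: ccaccctcagCCAATcaaaaccccc
CHEK2 and HSCB, chr22:28741876-28741900: tgccgccggaCCAATgaggagcagc
CHEK2 and HSCB, chr22:28741927-28741955: atgcctccTGGGAGTTGTAGTttagaagg
CHEK2 and HSCB, chr22:28742005-28742029: gactccccagCCAATcagcaacatt
The third window has the match on the minus strand, so it reads as the reverse complement.

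CCDC117 and XBP1, the next genes along, have starts of their own. The 250 bases before the start of CCDC117 (plus strand) have a GC content of 50%, beside a median of 58.0% for windows of this length, and no CCAAT. The 250 bases before the start of XBP1 (minus strand) have a GC content of 67.6% and 2 CCAAT, a number that 9.53% of windows reach, and 1 of these is followed after 9 free bases by CCACG. Together these letters make the endoplasmic reticulum stress response element, which is present in 0.074% of windows. Both are shown from 5′ to 3′ on the strand of the gene because these genes lie side by side and differed in how far their counts moved, and capitals mark CCAAT and, in XBP1, the CCACG of the stress element.
CCDC117, chr22:28772445-28772694: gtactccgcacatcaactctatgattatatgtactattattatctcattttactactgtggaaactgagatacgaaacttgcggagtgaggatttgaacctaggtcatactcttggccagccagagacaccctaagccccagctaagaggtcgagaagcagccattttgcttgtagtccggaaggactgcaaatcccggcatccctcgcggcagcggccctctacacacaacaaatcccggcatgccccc
XBP1, chr22:28800570-28800819: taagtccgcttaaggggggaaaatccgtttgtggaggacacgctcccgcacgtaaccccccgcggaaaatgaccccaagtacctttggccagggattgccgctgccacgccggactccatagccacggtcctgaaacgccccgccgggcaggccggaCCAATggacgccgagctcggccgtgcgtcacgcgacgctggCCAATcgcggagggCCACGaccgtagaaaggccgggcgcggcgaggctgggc
The windows before TTC28 and PITPNB have a GC content of 79.6% and 72.0% and no CCAAT. A match is a description of the letters, not of a bound site. The table has windows for 6 of the 7 genes, all except ZNRF3.

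CHEK2, HSCB and CCDC117 were the 3 members with the lowest KO to WT ratios, each below 50% of the WT level, whereas XBP1, PITPNB and TTC28 differed by far less. CHEK2 had 1402, 1536 and 605 counts in the WT libraries and 440, 493 and 339 counts in the KO libraries. On the CPM scale these are levels of 51.2, 51.3 and 54.5 in WT and 17.9, 18.3 and 19.0 in KO. The groups were far apart, and the WT library with the smallest total had the highest CHEK2 level. The mean CPM was 52.3 ± 1.89 for WT and 18.4 ± 0.578 for KO (SD, n = 3 each), so KO held 35.2% of the WT level. The log2 fold change from the fit across all tested genes was -1.50 (SE 0.0633), and 840 of the 16198 tested genes had a lower one (5.19% were at or below it). Fewer cells expressing a gene and less RNA of it per cell cannot be told apart in such bulk libraries.

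HSCB, which shares its start region with CHEK2, had levels of 15.6, 16.3 and 14.9 CPM in WT and 7.45, 7.06 and 7.53 CPM in KO. No KO library came near a WT library, and the libraries of each group lay close together. The means were 15.6 ± 0.687 and 7.34 ± 0.252 CPM (SD, n = 3 each), 47.0% of the WT level, with a log2 fold change of -1.10 (SE 0.0904).

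CCDC117, 15.2 kb beyond HSCB on the same strand, had 197, 245 and 91 counts in WT and 77, 109 and 60 in KO. Its levels were 7.19, 8.18 and 8.19 CPM in WT and 3.13, 4.05 and 3.37 CPM in KO. The groups stayed apart although this was the most thinly covered of the 6 fitted genes. Its KO libraries varied with a coefficient of variation of 13.5%, where counting error alone gives 11.4%. The means were 7.85 ± 0.575 and 3.52 ± 0.475 CPM (SD, n = 3 each), 44.8% of the WT level, and the log2 fold change was -1.14 (SE 0.127). The difference in fold change between HSCB and CCDC117 was thus smaller than the standard error of either.

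XBP1 starts on the far side of CCDC117, with 5.25 kb between the ends of these genes. Its levels were 101, 81.2 and 89.0 CPM in WT and 70.1, 60.8 and 76.9 CPM in KO. The lowest WT library, replicate 2, and the highest KO library, replicate 3, lay close together, and the groups did not overlap. XBP1 was the most variable of the 6 genes relative to counting error, with coefficients of variation of 11.0% in WT and 11.6% in KO, where counting error gives 2.44% and 2.53%. The mean CPM of XBP1 was 90.4 ± 9.94 for WT and 69.3 ± 8.07 for KO (SD, n = 3 each), 76.7% of the WT level, with a log2 fold change of -0.39 (SE 0.0695). With DESeq2 the log2 fold change of XBP1 was -0.38 with a larger SE of 0.133, so its precision depended on the fit. Gene counts do not separate the spliced from the unspliced XBP1 mRNA.

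On the other side of CHEK2, the start of TTC28 lies 7.90 kb beyond the far end of CHEK2, and the gene runs on the same strand over 701827 bases. It had 57.5, 60.6 and 59.4 CPM in WT and 53.8, 52.3 and 56.9 CPM in KO. The groups were separate by a narrow margin, with KO replicate 3 only just below WT replicate 1. The means were 59.2 ± 1.57 and 54.3 ± 2.31 CPM (SD, n = 3 each), 91.8% of the WT level, with a log2 fold change of -0.13 (SE 0.0547). TTC28 is the longest of the 7 genes and had the smallest difference of the 6 that were fitted.

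PITPNB, 57.9 kb farther on, had 110.4, 116 and 115 CPM in WT and 96.2, 97.0 and 96.5 CPM in KO. The KO libraries were almost level with each other and below every WT library. The means were 114 ± 3.19 and 96.5 ± 0.398 CPM (SD, n = 3 each), 84.6% of the WT level, with a log2 fold change of -0.24 (SE 0.0486).

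ZNRF3, at the other end, had 1, 2 and 1 counts in WT and 2, 1 and 3 counts in KO. All 6 values are at or under 3 counts, the groups overlapped, and no fold change was computed. ZNRF3 mRNA was therefore not measurable at this depth in either group.

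In all 6 fitted members every KO library was below every WT library, a separation that 33.5% of all tested genes showed (32.8% showed the opposite one). The study's thresholds are a log2 fold change beyond 1 or -1 together with an adjusted p below 0.05. Past both, 7.73% of all tested genes were lower in KO and 8.3% were higher. Fold changes of CHEK2, HSCB and CCDC117 lay beyond -1 and those of XBP1, PITPNB and TTC28 did not. Because the members were chosen with this contrast in view, nothing is read from these shares.

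**Figure D1:**
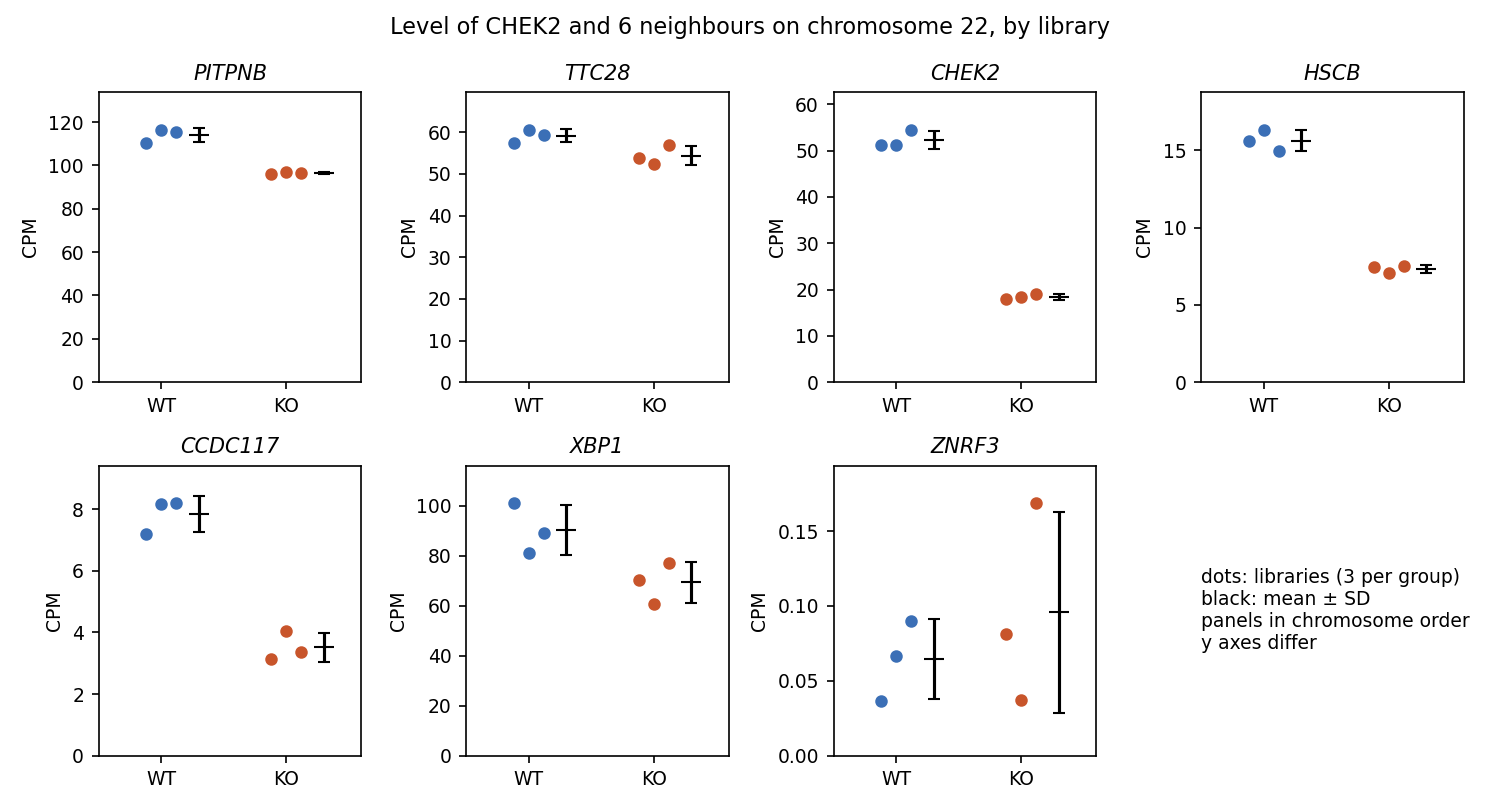
Level of each of the 7 genes in CPM, with its own axis for each gene, in the 3 WT and 3 KO libraries; points are libraries and the bars give the mean and SD. CHEK2, HSCB and CCDC117 show wide gaps between the groups (52.3 against 18.4 CPM for CHEK2), XBP1, PITPNB and TTC28 narrow ones, and ZNRF3 lies at or under 3 counts in every library.

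Ratios taken within a library do not depend on its scaling. For each 100 CHEK2 counts, HSCB had 30.5, 31.8 and 27.4 counts in the WT libraries and 41.6, 38.5 and 39.5 counts in the KO libraries. CCDC117 had 14.1, 16.0 and 15.04 counts for each 100 of CHEK2 in WT and 17.5, 22.1 and 17.7 in KO. In both cases the KO ratios were above all WT ratios, so CHEK2 had the larger fall in these libraries. For CCDC117 the margin was narrow, with 17.5 in KO replicate 1 and 16.0 in WT replicate 2. CHEK2 was chosen by this same contrast, so its larger fall is a description only. The CHEK2 counts used here leave out those of its pseudogenes. CHEK2 itself had 89.0, 84.6 and 91.7 counts for each 100 of TTC28 in WT and 33.3, 35.0 and 33.5 in KO, and thus most of the CHEK2 difference remained when it was set against the gene next to it.

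The spans of CHEK2, HSCB and CCDC117 are 54680, 15477 and 16628 bases, between the 6043 bases of XBP1 and the 701827 bases of TTC28. CHEK2 lies on the minus strand with TTC28, PITPNB and XBP1, and HSCB and CCDC117 lie on the plus strand with ZNRF3. CHEK2, HSCB and CCDC117 adjoin each other within 102 kb, from 28687743 to 28789301. Their windows before the start had a GC content of 59.6% and 11 CG in the 218 bases between CHEK2 and HSCB and of 50% and 10 CG in the 250 bases of CCDC117. The windows of XBP1, TTC28 and PITPNB had more of both, at 67.6%, 79.6% and 72.0% with 31, 41 and 32 CG. The part of position or of promoter composition in the results was not tested.

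Genes near the members were compared by place alone. Between the outermost members 2 further genes were tested, both long non-coding RNAs. TTC28-AS1, which runs antisense to TTC28, had 369, 424 and 147 counts in WT and 373, 431 and 250 in KO (log2 fold change 0.15, SE 0.0822, adjusted p = 0.12). ENSG00000226471, which starts on the other strand close to the start of XBP1, had 19, 20 and 7 counts in WT and 9, 11 and 6 in KO, a log2 fold change of -0.83 (SE 0.335, adjusted p = 0.0305), and this call was lost in 6 of 11 other settings, with an adjusted p of up to 0.153. Neither passed the fold threshold.

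Within 1 Mb of CHEK2 and apart from the members, 14 genes were tested, with a median log2 fold change of -0.20, where the median of all tested genes was 0.00. At an adjusted p under 0.05 alone 10 of the 14 were lower and 1 was higher, against 32.0% and 31.9% of all tested genes. Past both thresholds 2 were lower and 1 was higher. RFPL1S, a non-coding RNA 0.694 Mb away, had 120, 125 and 43 counts in WT and 40, 52 and 44 in KO (log2 fold change -1.09, adjusted p = 7.46e-07), which became -0.96 without KO replicate 1. NEFH, the heavy neurofilament gene, had 1362, 1946 and 600 counts in WT and 3, 2 and 0 in KO. RASL10A, a small GTPase gene, had 11, 6 and 7 counts in WT and 25, 28 and 16 in KO (log2 fold change 1.48, adjusted p = 0.000278). Of the rest, EWSR1 at -0.29, NIPSNAP1 at -0.38 and ZMAT5 at -0.39 had fold changes of the size of those of XBP1 and PITPNB.

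**Figure D2:**
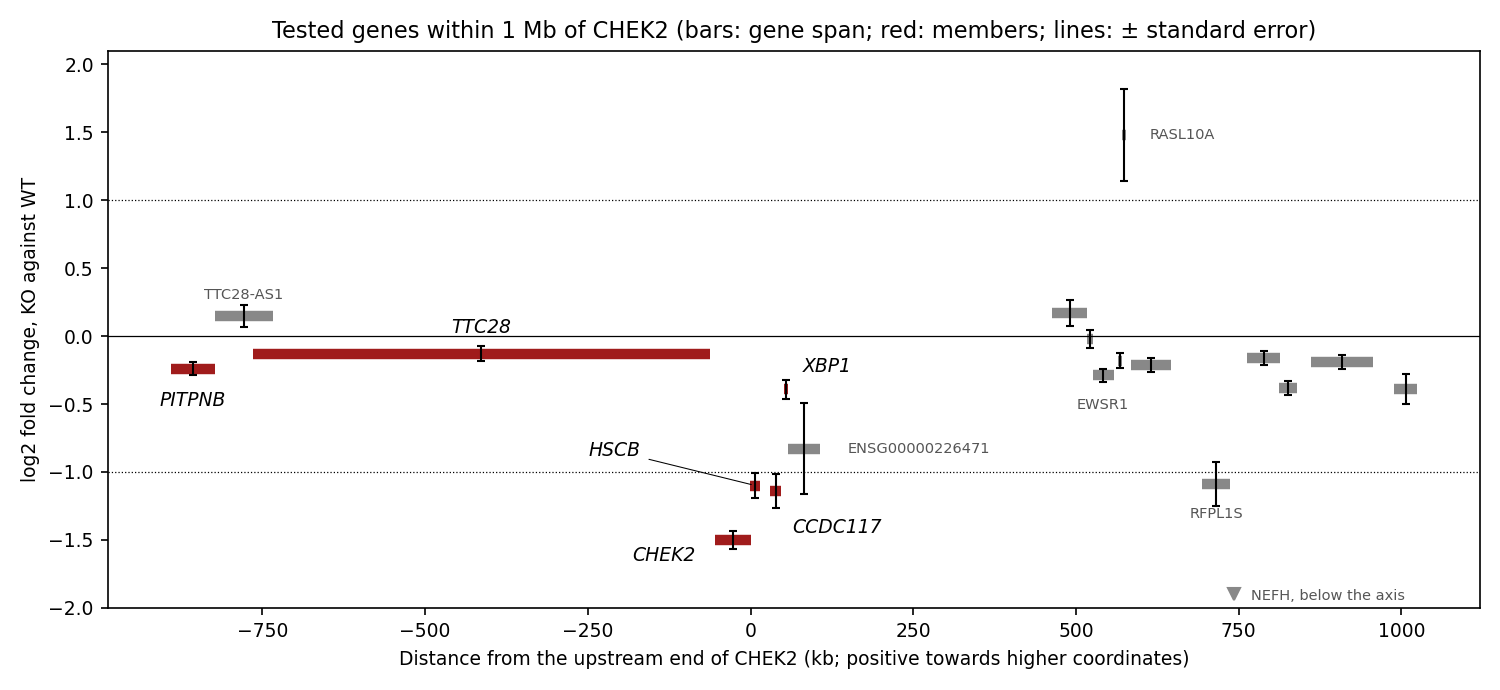
Log2 fold change of KO against WT with its SE, for the members and the other tested genes within 1 Mb of CHEK2, by distance in kb from the upstream end of CHEK2. Thick bars are gene spans, red for the 6 fitted members, and NEFH lies below the axis. CHEK2 at -1.50, HSCB at -1.10 and CCDC117 at -1.14 form a step of 3 adjoining genes between TTC28 at -0.13 and XBP1 at -0.39.

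In a wider view, 95 non-member genes within 5 Mb of CHEK2 had a median log2 fold change of -0.17, with 2 lower and 3 higher past both thresholds, and 41 lower and 10 higher at the adjusted p alone. Over the whole of chromosome 22, with the members left out, 399 genes had a median of -0.10. Of these 16 (4.01%) were lower and 17 (4.26%) higher past both thresholds, and 165 were lower and 74 higher at the adjusted p alone. Over all tested genes 7.73% were lower and 8.3% higher past both thresholds, and 32.0% and 31.9% at the adjusted p alone. The other genes called lower past both thresholds that were nearest to CHEK2 lay 0.694 Mb away on the higher side (RFPL1S) and 6.17 Mb away on the lower side (ZNF280A, log2 fold change -2.30). Among the 405 tested genes of the chromosome, members included, CHEK2 ranked 12 from the lowest fold change, CCDC117 17, HSCB 18, XBP1 92, PITPNB 136 and TTC28 201. The fold changes of XBP1, PITPNB and TTC28 were thus close to those of many genes along this chromosome. Gene copy number was not analysed here. The study's authors reported a higher DNA content and a higher chromosome number in the KO clone than in A2780, and the part of this in the results was not tested.

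**Figure D3:**
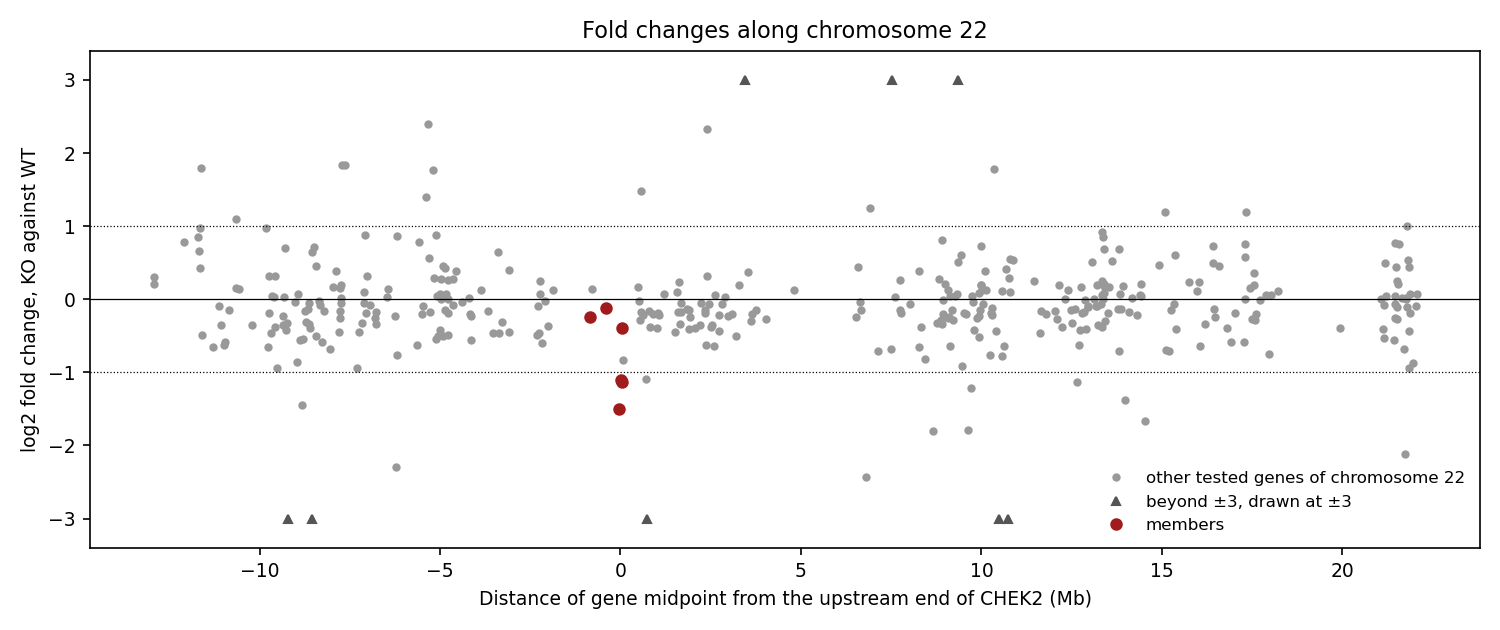
Log2 fold change of the 405 tested genes of chromosome 22 by distance in Mb from the upstream end of CHEK2, with the 6 fitted members in red and genes beyond 3 or -3 drawn as triangles at that value. The median of the non-member genes was -0.10, and CHEK2 ranked 12 from the lowest.

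CHEK2, HSCB and CCDC117 follow each other directly among the tested genes. This way of counting was chosen after their values were seen, and the counts below include these genes. CHEK2 was chosen by this same contrast, so nothing about the members is read from the shares. In the genome as a whole 87 of 15915 sets of 3 consecutive tested genes (0.547%) were called lower at all 3 positions, in 52 separate runs. Protein-coding genes that start within 1 kb of each other on opposite strands, as CHEK2 and HSCB do, formed 1098 tested pairs, of which 13 (1.18%) were lower at both genes and 63 at 1 gene at least. The fold changes of CHEK2 and HSCB differed by 0.40 on the log2 scale, where the median difference within such pairs was 0.32, and 59.0% of the pairs were closer to each other.

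Levels of different genes were compared per length, as TPM (counts per base of gene length, scaled to the same sum in each library) with the merged exon length of each gene. In WT, XBP1 had the highest level at 103 ± 10.8 TPM, followed by PITPNB at 77.7 ± 4.40, CHEK2 at 40.3 ± 3.01, HSCB at 37.1 ± 1.05, TTC28 at 16.2 ± 0.839, CCDC117 at 6.28 ± 0.634 and ZNRF3 at 0.0322 TPM (SD, n = 3). CHEK2 and HSCB were neighbours in that order and nearly touched, with WT libraries from 38.3 to 43.7 TPM for CHEK2 and from 36.1 to 38.2 TPM for HSCB. With the longest transcript in place of merged exons these ranges were far apart, at 51.7 to 58.3 TPM for CHEK2 and 36.4 to 38.5 TPM for HSCB. XBP1 (91.2 to 112 TPM) and PITPNB (73.2 to 81.9 TPM) were separate in WT by less than the SD of XBP1, and overlapped with the longest transcript, at 97.6 to 120.1 and 98.0 to 108 TPM.

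In KO the order on the TPM scale became XBP1 at 81.8 ± 10.2, PITPNB at 67.9 ± 0.399, HSCB at 18.1 ± 0.785, TTC28 at 15.4 ± 0.759, CHEK2 at 14.6 ± 0.490, CCDC117 at 2.90 ± 0.363 and ZNRF3 at 0.0491 TPM (SD, n = 3). CHEK2 thus went from place 3 to place 5, level with TTC28, since its KO libraries (14.3 to 15.2 TPM) overlapped those of TTC28 (14.7 to 16.2 TPM). By the longest transcript, CHEK2 had 54.1 TPM in WT and 19.7 TPM in KO and kept place 3 in both groups, and PITPNB (90.7 TPM) passed XBP1 (87.3 TPM) in KO. CHEK2 has 26 annotated transcripts, and its merged exons of 4493 bases are longer than its longest transcript of 2560 bases. Among the protein-coding genes listed, CHEK2 was at percentile 80.2 in WT and 61.7 in KO by TPM, HSCB at 78.7 and 65.0, CCDC117 at 51.1 and 45.8, and XBP1 at 92.9 and 90.7.

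**Figure D4:**
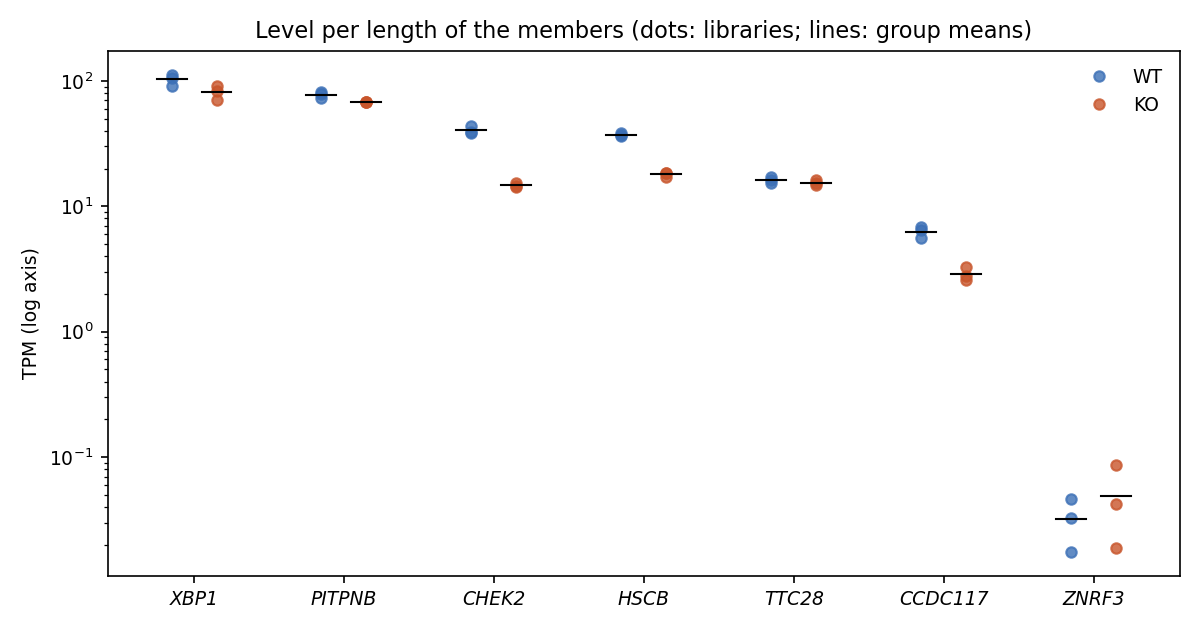
TPM (log axis, merged exon length) of the 7 genes in each WT and KO library, with lines at the group means. CHEK2 moves from 40.3 to 14.6 TPM, beside TTC28 in KO, and XBP1 stays highest in both groups.

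Reads of CHEK2 can be shared with its pseudogenes, near-identical copies of part of the gene elsewhere in the genome. Of 7 annotated CHEK2 pseudogenes listed, 1 had counts: CHEK2P2 on chromosome 15, from 20283496 to 20291558. It had 59, 66 and 26 counts in WT and 37, 49 and 38 in KO (log2 fold change -0.30, SE 0.188, adjusted p = 0.164). Of all CHEK2 and pseudogene counts these were 4.04%, 4.12% and 4.12% in WT and 7.76%, 9.04% and 10.1% in KO. With them added, the log2 fold change of CHEK2 was -1.43. The library kit marked the strand, and the strand setting of the counting is not given in the sources used here, so reads of TTC28 and TTC28-AS1, and of the 384 bases where CHEK2 and HSCB overlap, may not be told apart. With antisense counts added, the log2 fold change of TTC28 was -0.07.

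The genes most like CHEK2 over the 6 libraries were sought by the root mean square difference of log2 CPM, each gene centred on its mean. Among 15824 other tested genes with no zero count, the 5 nearest protein-coding genes off chromosome 22 were PXN (paxillin, a focal adhesion adaptor, difference 0.0484), TRPM7 (a cation channel fused to a kinase, 0.05), SLC16A9 (a transporter of the monocarboxylate family, 0.0550), RASA3 (a Ras GTPase-activating protein, 0.0558) and TGFB1I1 (a paxillin relative, 0.0566). Their log2 fold changes were -1.53, -1.50, -1.60, -1.57 and -1.41. CCDC117 (0.210) and HSCB (0.221) stood at ranks 275 and 309 among all these other genes, chromosome 22 included. Their smaller fold changes already set them apart from CHEK2 by this measure. With 6 libraries in 2 groups this measure reads mostly the group difference.

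The pathways of the members were described with 8 lists holding 115 genes, of which 106 were tested, members not included. The lists were written with earlier results of these data known, so their counts are descriptions. Past both thresholds 5 were lower (4.72%) and 1 was higher (0.943%), against 7.73% and 8.3% of all tested genes. At the adjusted p alone 36 were lower and 34 higher, and the median log2 fold change was 0.00, as over all tested genes. In 5 of the 8 lists no gene passed both thresholds with edgeR, voom/limma or DESeq2. Of their 73 tested genes 48 had an unadjusted p under 0.05 with edgeR, a share close to the 10798 of all 16198 tested genes. Genes named below that did not pass both thresholds, other than ATM, CHEK1 and ERN1, were chosen after their values were seen.

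Upstream of CHEK2, the 11 genes of break sensing and ATM activation had 1 gene lower past both thresholds, and 4 lower and 2 higher at the adjusted p alone, with a median of -0.05. The gene was MRE11, the nuclease of the MRE11-RAD50-NBN complex that recruits ATM, which fell from 51.5 ± 2.91 to 16.3 ± 0.532 CPM (SD, n = 3 each; log2 fold change -1.66, SE 0.0665, adjusted p = 1.4e-20). Its partner RAD50 fell less, by 0.57 on the log2 scale (adjusted p = 1.86e-11), and NBN, the other partner, stood at 0.03 (adjusted p = 0.67). ATM, the kinase that activates CHK2, was at 78.9 CPM in WT and 87.2 CPM in KO, with overlapping groups (log2 fold change 0.15, adjusted p = 0.0151), and this call was lost when WT replicate 1, WT replicate 2, KO replicate 1 or KO replicate 3 was left out, with an adjusted p of up to 0.102.

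Downstream, none of 16 CHK2 substrates passed both thresholds, while 5 were higher and 4 lower at the adjusted p alone (median 0.02). LATS2, a kinase of the Hippo pathway, fell by 0.91 on the log2 scale (adjusted p = 1.77e-14). The phosphatase genes CDC25A and CDC25C had log2 fold changes of 0.06 and -0.08 (adjusted p = 0.462 and 0.314). Of 10 regulators of the CHK2 protein none passed both thresholds, and 3 were higher and 2 lower at the adjusted p alone (median 0.01). Among the 3 were PPM1D, the phosphatase that switches CHK2 off, which rose from 46.4 to 71.0 CPM (0.61, adjusted p = 1.31e-11), and MDM2, a ubiquitin ligase, which rose from 141 to 207 CPM (0.55, adjusted p = 1.69e-11). In the parallel ATR and CHK1 branch, 11 genes were tested, none passed both thresholds, and 7 were lower and 4 higher at the adjusted p alone (median -0.22). CHEK1, the gene of the kinase with an overlapping task, fell from 69.9 to 51.1 CPM (-0.46, adjusted p = 1.35e-08), and TIPIN, a fork protection factor, fell by 0.73 on the log2 scale (adjusted p = 3.08e-11). ATR rose by 0.45 (adjusted p = 7.57e-09).

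For HSCB, 16 genes of mitochondrial iron-sulfur cluster assembly were tested, with none past both thresholds, 4 higher and 4 lower at the adjusted p alone and a median of -0.04. ISCU, the scaffold that HSCB binds, rose by 0.21 on the log2 scale (adjusted p = 0.00102), and HSPA9, the chaperone that works with HSCB, by 0.39 (adjusted p = 1.65e-08). LYRM4, a subunit of the cysteine desulfurase complex, fell by 0.43 (adjusted p = 3.41e-06). No common direction was seen.

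For XBP1, 20 genes of the IRE1 branch and XBP1 targets were tested, with none past both thresholds, 11 higher and 4 lower at the adjusted p alone and a median of 0.21. ERN1, the gene of IRE1, rose from 18.8 to 22.9 CPM (0.26, adjusted p = 0.00297). SRPRB, a subunit of the signal recognition particle receptor, rose by 0.77 (adjusted p = 5.06e-15), HERPUD1, a factor of protein degradation at the endoplasmic reticulum, by 0.72 (adjusted p = 1e-11), and EDEM1, which directs misfolded glycoproteins to degradation, by 0.59 (adjusted p = 6.21e-12). SEC24D, a coat component of vesicles, fell by 0.45 (adjusted p = 3.27e-08), and DNAJB9, a co-chaperone, stood at 0.02 (adjusted p = 0.849). Over all tested genes 31.9% were higher and 32.0% lower at the adjusted p alone. Because the list was written with earlier results of these data known, nothing is read from the difference in shares. XBP1 itself was at 76.7% of the WT level, and a link between the list and this level was not tested.

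For ZNRF3, 17 of 24 genes of the R-spondin and Frizzled module were tested, with 1 higher and 3 lower past both thresholds, 3 higher and 9 lower at the adjusted p alone and a median of -0.24. RNF43, the ligase closest to ZNRF3, rose from 0.795 ± 0.225 to 3.07 ± 0.334 CPM (SD, n = 3 each; 1.82, SE 0.209, adjusted p = 4.6e-09), which is a low level in both groups. Of the Frizzled receptor genes, FZD3 fell from 23.6 to 6.21 CPM (-1.92, adjusted p = 7.55e-19) and FZD6 from 5.30 to 0.587 CPM (-3.09, adjusted p = 1.34e-13), while FZD1 stood at 0.07 (adjusted p = 0.26). AXIN2, a target of Wnt signalling, fell from 6.06 to 2.41 CPM (-1.32, adjusted p = 3.88e-09). The R-spondin receptor gene LGR4 fell by 0.93 on the log2 scale (adjusted p = 1.45e-12).

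For PITPNB, 5 other phosphatidylinositol transfer proteins were tested, with 1 lower past both thresholds, 2 higher and 2 lower at the adjusted p alone and a median of 0.01. PITPNC1 fell from 37.2 to 11.0 CPM (-1.77, adjusted p = 1.36e-19). PITPNA, the closest relative of PITPNB, was at 83.8 CPM in WT and 84.1 CPM in KO (0.01, adjusted p = 0.919).

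**Figure D5:**
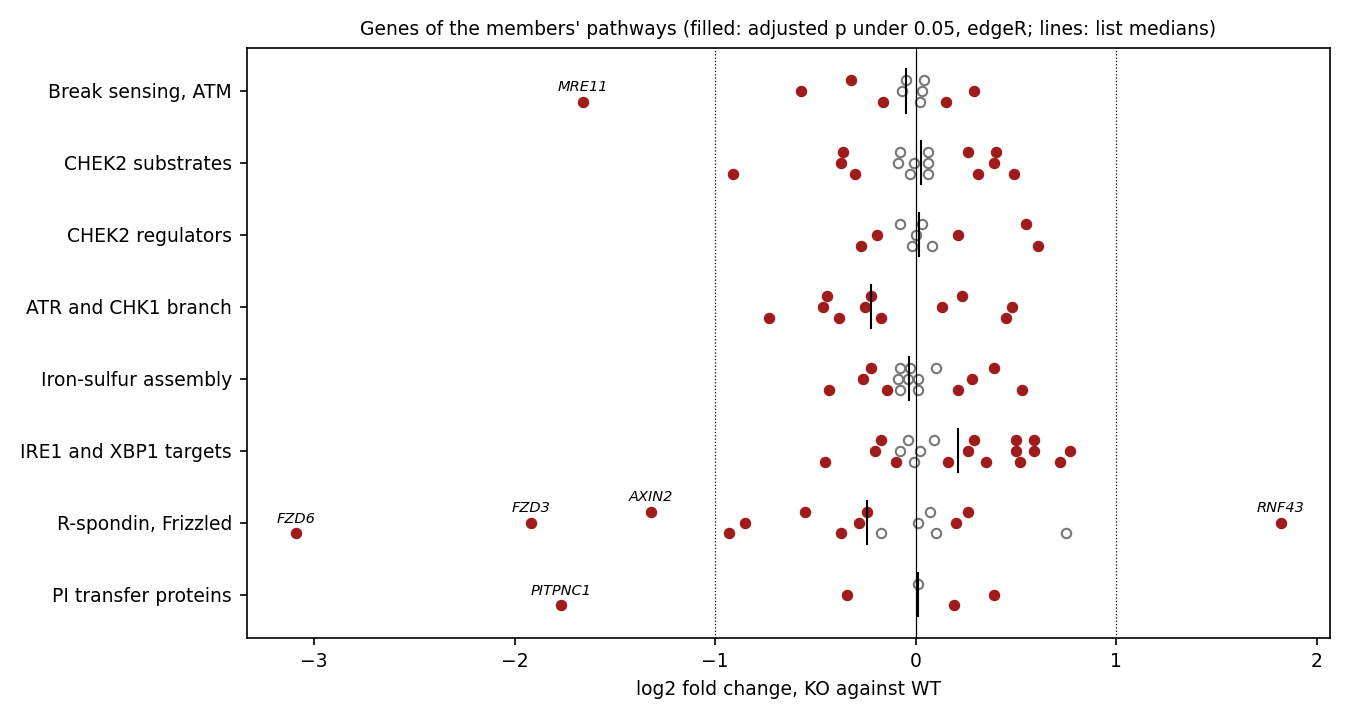
Log2 fold change of KO against WT for each tested gene of the 8 lists, 1 row for each list, with filled points for an adjusted p under 0.05, a solid bar at the list's median and dotted lines at 1 and -1. Most genes lie between the thresholds, and MRE11, PITPNC1, FZD3, FZD6 and AXIN2 lie below -1 and RNF43 above 1.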

How the data were processed

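Stranded single-end reads of 75 bases were obtained on an Illumina NextSeq from 3 libraries of WT cells and 3 of the KO clone. The authors deposited raw counts per Ensembl gene, made with FastQC, STAR on GRCh38 and HTSeq-Count. Versions, annotation release, strand setting and treatment of reads with several matches are not given in the sources used here. The counts carried no normalization, and floors in CPM cover counting error only, since reads had no molecular identifiers. No columns were left out.

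Groups were taken from the genotype labels, which give no batch and no pairing. Identifiers were matched without version to GENCODE 44 (56321 of 60483, 93.1%). Differences between KO and WT were fitted by edgeR 4.0.16 under R 4.3.3 (filterByExpr with a minimum count of 10 and total of 15, TMM, quasi-likelihood test, two-sided, Benjamini-Hochberg over 16198 genes). The authors' methods name voom/limma, which was used as an alternative (limma 3.58.1), as was DESeq2 1.42.0. A call needed a log2 fold change beyond 1 or -1 with an adjusted p below 0.05. The coefficient of biological variation was 4.35%. CPM used TMM-scaled totals, and TPM used merged exon length. Standard errors were derived from the fold change and its F statistic. Python 3.11.15 was used for the other steps.

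The members and gene lists were chosen with earlier results of these data known. Genes named were the members, tested genes between them, list genes past both thresholds, ATM, CHEK1, ERN1, RNF43 and a gene not reported here, CHEK2 pseudogenes with counts, the 5 genes most like CHEK2, and CDK12. Others named were chosen after their values were seen. Promoter windows came from a RefSeq table for GRCh38.p14.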

Additional observations from a re-analysis of the deposited data

How the results depend on the processing

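No paired analysis was possible because the labels number the 6 libraries in 1 series and share no replicate number between WT and KO. The fold changes of the 6 fitted members kept their direction in all settings tried. For 47 of the other genes named all settings were compared, and 39 kept their direction and their side of the threshold wherever they were tested. RFPL1S went under the fold threshold in 1 setting and CD14 did not pass both thresholds in 4, while ATM and ENSG00000226471, which passed at the adjusted p alone, missed it in 4 and 6. With a library left out, 4 genes near 0 changed sign and stayed short of the threshold, NBN (-0.02 to 0.05), CDC25A (-0.04 to 0.14), DNAJB9 (-0.03 to 0.05) and PITPNA (-0.03 to 0.06). The fold change of CHEK2 lay between -1.52 and -1.48 in the fits that left out 1 library and between -1.50 and -1.43 in the other settings, where -1.43 was reached with pseudogene counts added. The ranges with each library left out were -1.13 to -1.07 for HSCB, -1.27 to -1.05 for CCDC117, -0.48 to -0.30 for XBP1, -0.16 to -0.10 for TTC28 and -0.27 to -0.23 for PITPNB, where -0.27 was reached without WT replicate 1. TTC28 became -0.07 with antisense counts added. Upper-quartile scaling moved the median of all genes to 0.03.

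Of all tested genes 1345 were higher and 1252 lower past both thresholds, 5165 and 5188 at the adjusted p alone, and 568 and 684 where 10 counts in every library were required, which leaves 13405 genes and turns the larger number from higher to lower. With each library left out 1377 to 1502 were higher and 1269 to 1369 lower. Within 5 Mb of CHEK2 the counts were 3 and 2, 10 and 41 at the adjusted p alone and 0 and 1 with 10 counts in every library, and the number lower was 1 to 2 with each library left out, being 1 without KO replicate 1, where RFPL1S missed the fold threshold. In the pathway lists 1 was higher and 5 lower, 34 and 36 at the adjusted p alone, while the number higher was 2 with no filter and 0 with 10 counts in every library, where RNF43 was not tested. The calls named past both thresholds in these lists were kept in every setting in which the gene was tested.

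Depth limits what can be said of ZNRF3, RASL10A and ENSG00000226471, which had at most 28 counts in any library.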
